A study of Mus musculus with 24 samples.

Results

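Livers of adult mice taken 48 h after gamma irradiation were compared with livers taken 24 h after it, with 4 arrays at each time. These 8 arrays are 8 of the 24 in the series and were chosen by their labels alone: age of 7 weeks and time of 24 or 48 h. Each array read liver RNA of a separate B6C3F1 mouse, a first-generation hybrid laboratory strain. Both groups had received 4 Gy of gamma rays, given by a caesium-137 irradiator at a rate of 0.57 Gy each minute, and each held 2 males and 2 females. Both groups are therefore irradiated livers, no unexposed liver enters the comparison, and a change between 24 and 48 h cannot show by itself how far a gene lay from its level without radiation. The fit also used 8 arrays of infant liver, from mice of 1 week at 24 and 48 h after the same dose. They entered only the estimate of the spread and the comparison of ages. The liver was sampled whole, so a lower level can come from fewer cells of a type or from less RNA per cell, and these cannot be told apart.

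Type I and type II interferons are signalling proteins that act through receptors and transcription factors such as STAT2 and IRF9. They switch on a set of antiviral genes, the interferon-stimulated genes, in hepatocytes and in the immune and lining cells of the liver. Globins form the haemoglobin of red blood cells, and their transcripts in adult liver are carried mainly by circulating reticulocytes and blood in the tissue. Fatty acid synthesis turns surplus carbohydrate into lipid in hepatocytes and is governed by the factors encoded by Srebf1 and Mlxipl together with insulin and feeding.

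The brightness of the 8 arrays, taken as the 75th percentile of all probes, ran from 149 to 246 intensity units, and 41.5% to 52% of the probes lay well above background. Arrays of the same time and sex correlated at 0.9885 to 0.9952. All 22 hepatocyte markers on the list, albumin among them, were measured well above background on all 8 arrays, and Xist and Ddx3y matched the labelled sex of every array. All adult males of both times lay on slide 2 and all adult females of both times on slide 3. Time was therefore balanced over these slides, whereas sex and slide cannot be told apart, and every value given for males or females alone is also a value within 1 slide. Levels below are log2 intensities after subtraction of the 75th percentile of each array, and changes are 48 h minus 24 h on that scale, averaged over the sexes.

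Of 19299 genes tested with limma, 423 (2.19%) changed at a Benjamini-Hochberg adjusted p under 0.05. There were 177 genes (0.917%) with a higher level at 48 h and 246 (1.27%) with a lower level. Large changes were mostly falls: 70 of the lower genes and 11 of the higher genes changed at least 2-fold. The median change over all genes was -0.003, and the median size of a change was 0.119. At an unadjusted limma p under 0.05 there were 3604 of the 19299 genes, and 2858 for the difference of the change between the sexes. Counts at an unadjusted p in the lists below are to be read beside these. Without reference to any test, all 4 arrays at 48 h lay above all 4 at 24 h for 329 genes (1.7%) and below them for 416 genes (2.16%).

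The number of calls depends on how the spread between arrays is estimated. The fit above took the spread from 16 arrays at 24 and 48 h, the 8 of adult liver and the 8 of infant liver (1 week). With the 8 adult arrays alone, which leave 4 residual degrees of freedom, 16 genes passed. Each gene has the same change in both fits, which differ only in the spread. Isg15, Ifit1, Ifit2, Ifi44, Ifi44l, Xaf1, Tor3a and the globins Hba-a1, Hba-a2, Hbb-b2 and Hbb-bt were among those that were lower, and Ccnd1 and Nat8f5 were higher. Leaving out 1 array moved the total between 152 (without female 2 at 24 h) and 756 (without male 1 at 48 h). It fell to 229, 228 and 217 without male 1 or female 1 at 24 h or female 1 at 48 h, and rose to 637 without male 2 at 24 h. In all, 113 of the 423 genes passed in each of the 8 fits that left out 1 array. These 113 included 21 interferon-stimulated genes, 5 globin genes, 4 genes of fatty acid synthesis and 2 of the G1 and S list. A fit that left out 1 adult array kept 1 array of that time and sex, which adds nothing to the spread. Scaling each array on the median of all probes shifted the median change of all genes to 0.18, and 57.4% of the calls were then higher, against 41.8% before.

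**Figure D1:**
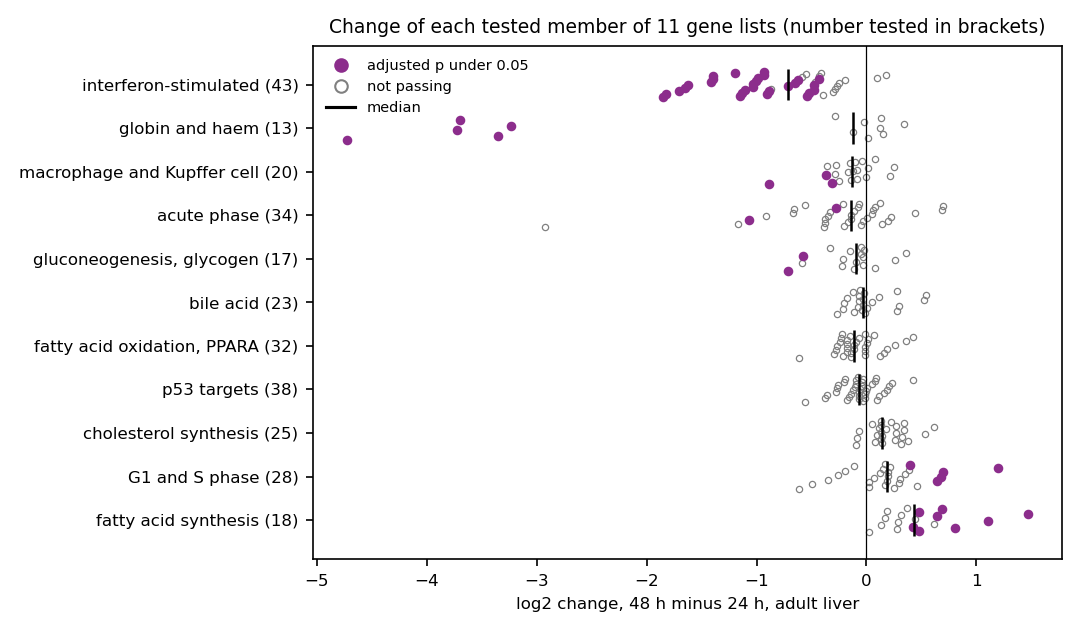
Each point is the log2 change of a tested gene (x axis, 48 h minus 24 h, n = 4 arrays per time) in 11 gene lists (y axis, number tested in brackets). Filled points passed at an adjusted p under 0.05, and the black bars are list medians. The interferon-stimulated list lies left of zero with a median of -0.71, the 5 globins lie at -3.24 or lower, and the fatty acid synthesis list lies right of zero with a median of 0.43.

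Interferon-stimulated genes, whose products block viruses, were lower at 48 h. All 43 members of the list that the array holds were tested (46 listed). Of these, 28 fell, none rose and 15 did not pass, against 1.27% of all genes lower. The median change of the list was -0.71, beside -0.003 over all genes, and 41 of the 43 values were negative. For 31 members all arrays at 48 h lay below all arrays at 24 h, against 2.16% of all genes. In the fits that left out 1 array, 21 to 31 members fell and none rose. The count was 16 with median scaling and 5 with the 8 adult arrays alone, and the list median stayed between -0.81 and -0.53 over all alternatives.

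The factor complex that holds STAT2 and IRF9 binds a sequence called the interferon-stimulated response element. The promoter windows of 4 members are shown because they hold or lack its core letters and differ in whether the gene fell. Each is the 250 bases before the annotated start, read 5' to 3' on the strand of the gene, from the RefSeq promoter table of build GRCm38.p6. Capitals mark every match to the core GAAANNGAAA on either strand, where overlapping matches run together. Isg15 (chr4:156200819-156201068, minus strand) and Ifit1 (chr19:34640639-34640888, plus strand) fell and hold 3 and 2 matches. Irf7 (chr7:141266425-141266674, minus strand) fell and holds 0 matches in this window. Bst2 (chr8:71537473-71537722, minus strand) did not pass and holds 2 matches.
Isg15: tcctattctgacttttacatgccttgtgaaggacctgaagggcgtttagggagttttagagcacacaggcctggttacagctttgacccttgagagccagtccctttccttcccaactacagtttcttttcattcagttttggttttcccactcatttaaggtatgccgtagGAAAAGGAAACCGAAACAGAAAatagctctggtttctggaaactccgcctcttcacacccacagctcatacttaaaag
Ifit1: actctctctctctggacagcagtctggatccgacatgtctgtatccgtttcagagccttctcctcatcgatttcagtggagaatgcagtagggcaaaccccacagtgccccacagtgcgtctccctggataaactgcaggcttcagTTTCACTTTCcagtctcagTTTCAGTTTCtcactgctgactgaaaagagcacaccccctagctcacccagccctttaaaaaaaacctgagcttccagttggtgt
Irf7: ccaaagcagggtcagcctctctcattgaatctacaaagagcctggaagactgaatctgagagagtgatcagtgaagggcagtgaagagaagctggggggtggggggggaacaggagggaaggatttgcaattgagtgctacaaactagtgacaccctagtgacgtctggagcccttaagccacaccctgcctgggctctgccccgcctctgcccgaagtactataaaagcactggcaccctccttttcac
Bst2: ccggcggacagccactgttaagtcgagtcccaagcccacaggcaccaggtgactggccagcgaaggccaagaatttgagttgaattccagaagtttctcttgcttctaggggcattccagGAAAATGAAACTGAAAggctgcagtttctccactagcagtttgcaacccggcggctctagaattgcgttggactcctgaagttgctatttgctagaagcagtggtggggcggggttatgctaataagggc

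Of the 43 tested members, 32 had a promoter in the table, and 14 of those (43.8%) held the core, beside 348 of 10378 tested genes with a promoter (3.4%) and 936 of all 27025 genes in the table (3.5%). The core was in 9 of 22 promoters (40.9%) of members that fell and in 5 of 10 of members that did not pass. A match is a description of letters and not of binding.

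Isg15 encodes a ubiquitin-like protein that is attached to other proteins. Its level at 24 h was 6.45 and 6.37 in the males and 6.80 and 6.79 in the females, and at 48 h it was 5.17 and 4.89 in the males and 4.79 and 4.72 in the females. The groups did not overlap, and the change was -1.71 (SE 0.13, 3.27-fold lower, adjusted p = 0.000221). Usp18, which removes the Isg15 protein from its targets, fell by 1.40 (SE 0.15, adjusted p = 0.0024), from 3.99 ± 0.14 to 2.59 ± 0.29 (SD, n = 4).

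The Ifit genes encode proteins that bind foreign RNA ends. Ifit1 lay at 1.98 and 1.85 in males and 2.97 and 2.83 in females at 24 h, and at 0.52 and 0.05 in males and 0.82 and 0.83 in females at 48 h. Females were higher than males at 24 h, and all 48 h arrays were lower than every 24 h array (change -1.85, SE 0.19, 3.61-fold lower, adjusted p = 0.00133). Ifit2 fell from between -0.49 and -0.04 at 24 h to between -2.09 and -1.64 at 48 h, a change of -1.65 (SE 0.12, adjusted p = 0.000186). Ifit3 changed by -1.40 (SE 0.21, adjusted p = 0.00978), and its arrays did not overlap either.

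Ifi44, whose product is a cytoplasmic antiviral protein, lay at 1.15 and 0.94 in males and 2.12 and 2.28 in females at 24 h. At 48 h it lay at -0.10 and -0.33 in males and -0.49 and 0.08 in females. The change was -1.83 (SE 0.12, 3.55-fold lower, adjusted p = 0.000104). Rsad2, the gene of the antiviral protein viperin, changed by -1.19 (SE 0.18, adjusted p = 0.0108).

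The oligoadenylate synthetases make a second messenger that activates an RNA-degrading enzyme. Oas1a changed by -1.04 (SE 0.13, adjusted p = 0.00408) and Oasl2, a relative, by -1.41 (SE 0.18, adjusted p = 0.00451), each with arrays that did not overlap. Oas3 changed by -1.62 (SE 0.31, adjusted p = 0.0282), but only 1 of its 4 arrays at 48 h was well above background, and it passed in only 3 of the 8 fits that left out 1 array, with an adjusted p of up to 0.0818.

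Dhx58, Ddx58 and Ifih1 encode sensors of foreign RNA. Dhx58 changed by -0.93 (SE 0.13, adjusted p = 0.00685), and it passed in all 8 fits that left out 1 array. Ddx58 changed by -0.47 (SE 0.079, adjusted p = 0.0163) and lost its call without female 1 at either time (adjusted p of up to 0.0568). Ifih1 changed by -0.48 (SE 0.086, adjusted p = 0.0236) and passed in 3 of the 8 such fits. Irf7, the transcription factor that amplifies interferon production, changed by -0.93 (SE 0.14, adjusted p = 0.00887), from 2.56 ± 0.13 to 1.63 ± 0.34 (SD, n = 4).

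The genes of the signalling factors STAT2 and IRF9 did not pass. Stat2 changed by -0.29 (SE 0.078, adjusted p = 0.0911) and Irf9 by -0.55 (SE 0.13, adjusted p = 0.0567). Irf9 passed without male 1 at 48 h (adjusted p = 0.0242). The 2 members with positive values were Bst2, the gene of the membrane protein tetherin, at 0.09 (SE 0.078, adjusted p = 0.558), and Ifi27l2b at 0.18 (SE 0.30, adjusted p = 0.795).

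**Figure D2:**
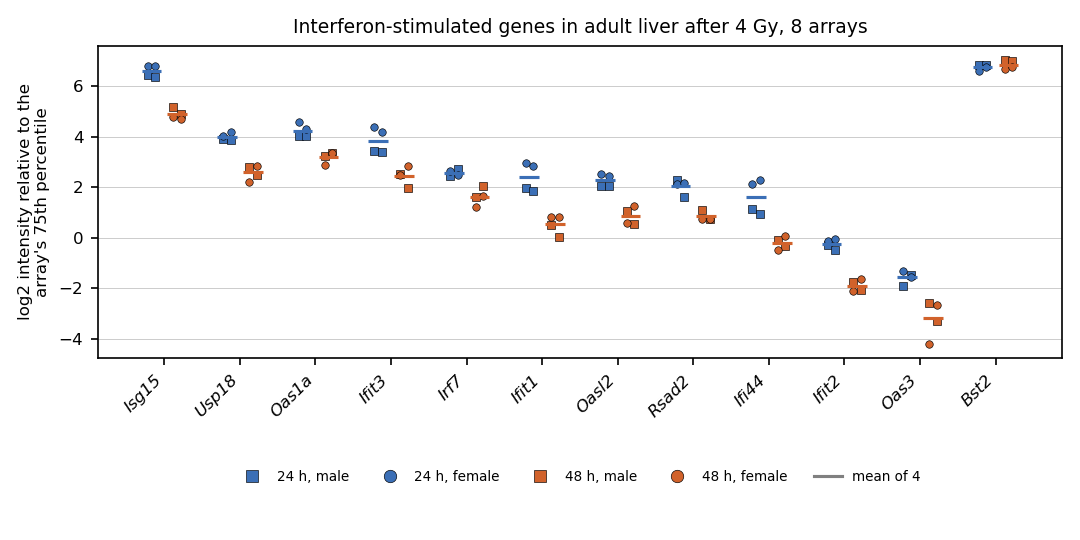
Levels of 12 interferon-stimulated genes (y axis, log2 intensity relative to the 75th percentile of the array) on each of the 8 adult arrays, with squares for males, circles for females and bars for the mean of 4. The 48 h arrays lie below all 24 h arrays for the first 11 genes from the left, Isg15 to Oas3, while those of Bst2 overlap.

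The list median was -0.81 in females and -0.72 in males, and 39 of the 43 members were negative in both. In females alone (2 against 2 arrays) 27 members fell, and in males alone 9 fell. Of all 19299 genes 478 fell in females and 62 in males, so calls were fewer in males throughout. With limma none of the 43 passed the test of the difference between the sexes, against 33 (0.171%) of all genes. At an unadjusted p under 0.05 there were 7 of the 43, beside 2858 of all 19299 genes. In infant livers, irradiated at 1 week and sampled at the same times with 2 males and 2 females each, the list median was -0.06 and 1 member fell. Of all 19299 genes 576 passed in infants in either direction. Of the 43 members, 15 passed the test of adult change minus infant change, all 15 with the more negative change in adults. Of all 19299 genes 346 (1.79%) passed this test, 254 (1.32%) of them with the more negative change in adults. For Isg15 the infant arrays lay between 3.90 and 4.26 at 24 h and between 3.59 and 4.10 at 48 h, and the change of -0.27 was smaller in size than the adult one (difference -1.44, adjusted p = 0.00914). For Ifit1 the infant change was 0.11 (difference -1.96, adjusted p = 0.0103). The infant females of 48 h lay on slide 2 and those of 24 h on slide 1, so part of the infant change cannot be told apart from the slide.

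**Figure D3:**
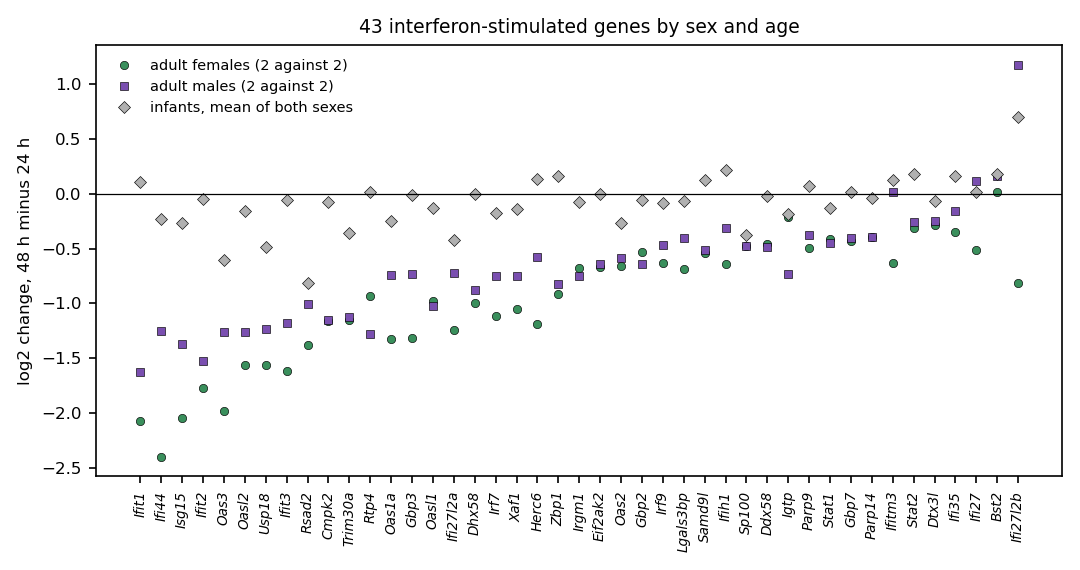
Log2 change (y axis, 48 h minus 24 h) of the 43 interferon-stimulated genes (x axis, ordered by the adult change) in adult females, adult males and infants. The adult points lie below zero for 39 genes in both sexes, whereas the infant diamonds scatter around zero with a median of -0.06.

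Several immune cell lists were read beside the interferon genes. Of 20 tested macrophage and Kupffer cell markers (23 listed) 3 fell and none rose, against 1.27% of all genes lower. These were Fcgr1, an antibody receptor, at -0.89 (SE 0.14, adjusted p = 0.0133), Cd68, a lysosomal protein, at -0.37 (SE 0.073, adjusted p = 0.0333), and the iron exporter gene Slc40a1 at -0.32 (SE 0.069, adjusted p = 0.0469). Fcgr1 passed in 7 of the 8 fits that left out 1 array (adjusted p = 0.0551 without female 2 at 24 h), and Cd68 and Slc40a1 in 2 of 8 each. The list median was -0.13, and it became 0.06 with median scaling. The count of members that fell was 0 without female 2 at 24 h, 4 without female 2 at 48 h, 3 without male 1 at 48 h and 1 without any other single array. The summed linear level of these 20 markers ran from 276 to 318 at 24 h and from 227 to 296 at 48 h. Of 9 tested B cell markers (23 listed) 2 fell, against the same 1.27% of all genes. Of the 9 values 5 were negative and 4 positive, from -0.90 to 0.45 with a median of -0.14. The 2 that fell were Cd72 at -0.90 (SE 0.12, adjusted p = 0.00518) and Cd22 at -0.85 (SE 0.17, adjusted p = 0.0334). Cd22 passed in 2 of the 8 fits that left out 1 array, and the summed level of the list ran from 6.27 to 9.2 at 24 h and from 5.89 to 7.71 at 48 h. The other 14 B cell genes had no probe that passed the filter. Of 18 T and NK cell markers (28 listed) none passed in limma (3 at an unadjusted p under 0.05), and their summed level ran from 42.4 to 51.8 at 24 h and 40.8 to 54.5 at 48 h. The part of immune cell numbers in the fall of interferon-stimulated genes was not tested.

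The globin genes, which encode the protein chains of haemoglobin, fell most among the lists. All 5 adult globin genes tested were lower at 48 h, against 1.27% of all genes. Their arrays at the 2 times did not overlap, where 2.16% of all genes lay wholly below, and all 5 passed in each of the 8 fits that left out 1 array. Hbb-bt, a beta globin gene, lay at 4.64 and 3.93 in males and 3.72 and 3.08 in females at 24 h. At 48 h it lay at 0.09 and -0.30 in males and at -1.25 and -2.07 in females. Males were higher than females at both times, and the change was -4.73 (SE 0.29, 26.5-fold lower, adjusted p = 8.33e-05).

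Hba-a2, an alpha globin gene, lay at 8.15 and 7.69 in males and 7.11 and 6.57 in females at 24 h, and at 5.36 and 4.80 in males and 3.42 and 2.99 in females at 48 h. The change was -3.24 (SE 0.18, 9.44-fold lower, adjusted p = 7.48e-05). Hba-a1 changed by -3.35 (SE 0.21, adjusted p = 8.42e-05), Hbb-b2 by -3.72 (SE 0.25, adjusted p = 0.000104) and Hbb-b1 by -3.70 (SE 0.36, adjusted p = 0.00133). For Hbb-b1 only 3 of the 4 arrays at 48 h were well above background. The alpha genes are near-identical copies of each other, as are the beta genes, so probes may share signal and the split between copies is uncertain. Hbb-bs had no probe that passed the filter.

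No other gene of the 2 red cell lists passed. The haem enzyme gene Alas2, which makes the first committed step of haem synthesis in red cell precursors, lay at 6.04 and 5.97 in males and at 3.40 and 3.16 in females at 24 h. At 48 h it lay at 5.77 and 5.61 in males and 3.37 and 2.66 in females, a change of -0.29 (SE 0.17, adjusted p = 0.391). Males lay above females at both times, and the times overlapped. The remaining 7 haem enzyme genes changed by -0.12 to 0.34 and did not pass. Of 31 red cell membrane and factor genes 16 could be tested and none passed in limma (1 at an unadjusted p under 0.05), with changes from -0.40 to 0.63. Their summed level ran from 107 to 141 at 24 h and from 119 to 145 at 48 h. Slc4a1, the main red cell anion exchanger, was not among the tested genes. In infants the 5 globins also fell, by 1.57 (Hba-a2) to 3.69 (Hbb-bt), and only Hba-a2 passed the test of the age difference (-1.67, adjusted p = 0.015). The part of the blood content of the samples was not tested.

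**Figure D4:**
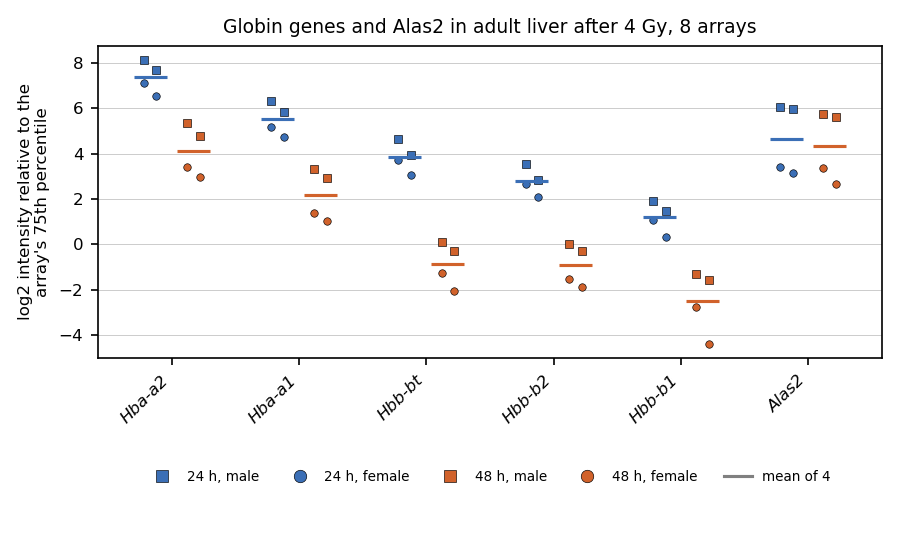
Levels of 5 globin genes and Alas2 (y axis, log2 intensity relative to the 75th percentile of the array) on the 8 adult arrays, with squares for males, circles for females and bars for the mean of 4. All 48 h globin points lie below all 24 h points, while the Alas2 points separate by sex and overlap between times.

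Genes of fatty acid synthesis were higher at 48 h. Of 18 tested members (19 listed) 8 rose, none fell and 10 did not pass, against 0.917% of all genes higher. All 18 values were positive, with a median of 0.43. Fasn, the fatty acid synthase, lay at 0.13 and 0.05 in males and 1.09 and 0.55 in females at 24 h. At 48 h it lay at 1.48 and 1.04 in males and 2.83 and 2.35 in females. Every 48 h array lay above the 24 h arrays of its own sex, although the lowest male at 48 h lay below the highest female at 24 h. The change was 1.47 (SE 0.16, 2.77-fold higher, adjusted p = 0.00187).

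Acaca, the acetyl-CoA carboxylase that makes the building block of fatty acids, lay between 4.29 and 4.65 at 24 h and between 4.99 and 5.10 at 48 h with no overlap (change 0.64, SE 0.075, adjusted p = 0.00353). Elovl6, which lengthens fatty acids, changed by 0.81 (SE 0.11, adjusted p = 0.00792). Pklr, the liver pyruvate kinase, changed by 0.69 (SE 0.092, adjusted p = 0.00582). These 3 genes and Fasn passed in all 8 fits that left out 1 array.

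The calls of the other 4 were less firm. Thrsp, a lipogenic regulator, changed by 1.11 (SE 0.25, adjusted p = 0.0492) and passed in 1 of the 8 fits that left out 1 array. Me1, which supplies NADPH, changed by 0.48 (SE 0.10, adjusted p = 0.0453) and passed in 2 of 8. Acly, which makes cytosolic acetyl-CoA, changed by 0.48 (SE 0.10, adjusted p = 0.0405) and passed in 1 of 8. Mlxipl, the gene of the carbohydrate response factor ChREBP, changed by 0.42 (SE 0.091, adjusted p = 0.0468) and passed in 2 of 8. Another Mlxipl probe changed the opposite way at an unadjusted p under 0.05, and the mean of its probes gave -0.05. Scd1, the stearoyl-CoA desaturase, changed by 0.31 (SE 0.21, adjusted p = 0.448) and the regulator Srebf1 by 0.37 (SE 0.19, adjusted p = 0.328).

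The list median was 0.64 in females, where 7 members rose, and 0.24 in males, where 2 rose. Of all 19299 genes 225 rose in females and 57 in males. With limma none of the 18 passed the test of the sex difference (2 at an unadjusted p under 0.05, beside 2858 of all 19299 genes). The count of members that rose was 4 without male 1, female 1 or female 2 at 24 h or female 1 at 48 h, and 5 without male 1 or female 2 at 48 h. It was 2 with sex left out of the fit, and with the 8 adult arrays alone limma called none at an adjusted p under 0.05. Those settings keep the median of 0.43 by construction. In infants the list median was 0.28 and 5 members rose, where 576 of all 19299 genes passed in either direction. Of the 18, 4 passed the test of the age difference, against 1.79% of all genes. The change was more positive in adults for 3 of them and more negative in adults for 1. The 3 were Fasn (1.36 higher in adults, adjusted p = 0.0172), Acaca (0.54, adjusted p = 0.0366) and Elovl6 (0.78, adjusted p = 0.0428).

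Few genes of the other metabolic lists passed. G6pc, the last enzyme of glucose production, changed by -0.71 (SE 0.16, adjusted p = 0.0469), and Pck1, which commits carbon to glucose, by -0.58 (SE 0.13, adjusted p = 0.0469). Both passed in only 2 of the 8 fits that left out 1 array, with adjusted p of up to 0.135 and 0.13. They were the only 2 of 17 gluconeogenesis and glycogen genes to pass, against 1.27% of all genes lower, and without male 2 at 48 h 1 member of the list rose. The fall of Pck1 was -1.05 in females and -0.11 in males, a difference that did not pass (adjusted p = 0.136). In infants G6pc changed by 0.80, and the age difference of -1.51 passed (adjusted p = 0.0137).

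**Figure D5:**
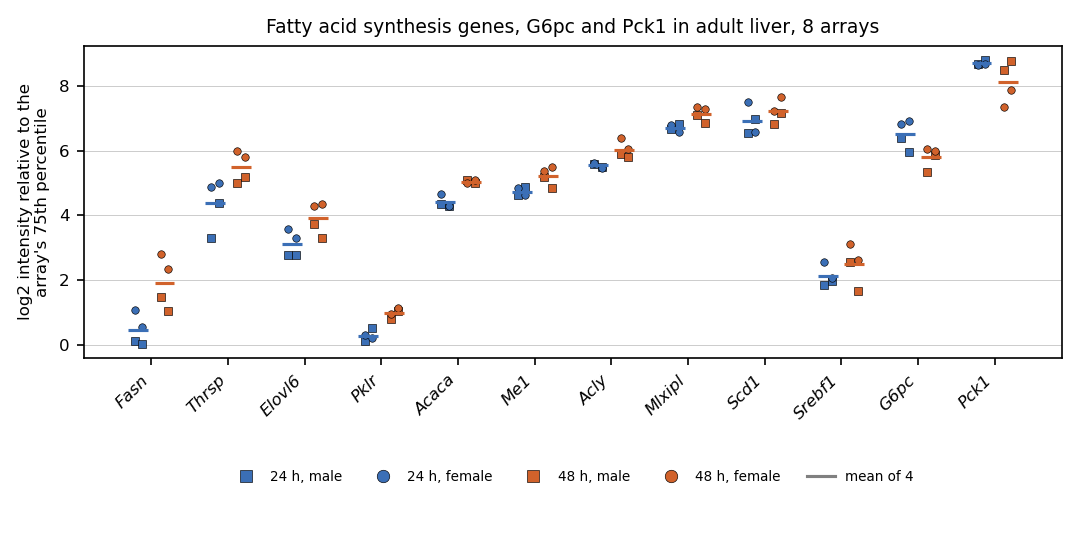
Levels of 10 fatty acid synthesis genes, G6pc and Pck1 (y axis, log2 intensity relative to the 75th percentile of the array) on the 8 adult arrays, with squares for males, circles for females and bars for the mean of 4. The 48 h arrays of Acaca, Pklr, Acly and Mlxipl lie above all 24 h arrays, and those of the other genes overlap.

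Of 25 genes of cholesterol synthesis and uptake none passed in limma (3 at an unadjusted p under 0.05), and 22 values were positive (median 0.14). Without male 2 at 48 h the median was -0.01. None of 32 genes of fatty acid oxidation and PPARA targets passed (8 at an unadjusted p under 0.05), and Cyp4a14, a fatty acid hydroxylase, changed by -0.24 (SE 0.52, adjusted p = 0.847). None of 23 bile acid genes passed (4 at an unadjusted p under 0.05), and Cyp7a1, the rate-limiting enzyme of bile acid synthesis, changed by 0.53 (SE 0.39, adjusted p = 0.499). The bile acid exporter gene Slc51b, which is outside this list, rose by 1.18 and is described below. None of 26 amino acid and urea cycle genes passed (2 at an unadjusted p under 0.05). Of 47 xenobiotic metabolism genes 1 fell, a share near the 1.27% of all genes. This was the cytochrome gene Cyp3a13, at -0.48 (SE 0.081, adjusted p = 0.0163), which lost its call without female 2 at 24 h (adjusted p = 0.0632). The other tested Cyp3a13 probe changed the opposite way but did not pass an unadjusted p of 0.05 in limma. Among the metabolic lists with calls, the rise was in fatty acid synthesis, and whether it is a return cannot be seen without an unexposed level.

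Some genes of the G1 and S phases of the cell cycle, in which DNA is copied, were higher at 48 h. Of 28 tested members (33 listed) 5 rose and none fell, against 0.917% of all genes higher, with a list median of 0.19. Ccnd1, which encodes cyclin D1 and drives entry into the cycle, lay at 2.84 and 2.66 in males and 4.33 and 4.25 in females at 24 h. At 48 h it lay at 4.50 and 4.51 in males and 4.88 and 4.98 in females. The arrays did not overlap, and the change was 1.19 (SE 0.083, 2.29-fold higher, adjusted p = 0.000107). It was 1.75 in males and 0.64 in females, a difference of 1.11 that passed (adjusted p = 0.0379), so that the gap between the sexes at 24 h was narrower at 48 h.

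Rrm2, a subunit of the enzyme that makes deoxynucleotides, changed by 0.64 (SE 0.081, adjusted p = 0.00476) with no overlap. Ccne1, the gene of cyclin E1, changed by 0.70 (SE 0.13, adjusted p = 0.0288), Mcm5, part of the replication helicase, by 0.68 (SE 0.13, adjusted p = 0.031), and Rfc4, part of the clamp loader, by 0.40 (SE 0.082, adjusted p = 0.04). Ccnd1 and Rrm2 passed in all 8 fits that left out 1 array, and Ccne1, Mcm5 and Rfc4 in 3, 4 and 2 of them. The count of members that rose was 2 without male 1 or female 1 at 24 h or male 2 at 48 h, 3 without female 1 at 48 h, and 1 with the 8 adult arrays alone. In the fits without male 1 or male 2 at 48 h, 1 member fell.

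Only 15 of 32 G2 and M genes passed the filter. Ccnb1, the gene of cyclin B1, was the only member to pass, against 1.27% of all genes lower. It lay between -2.97 and -2.45 on the 4 arrays at 24 h and at -2.54 and -2.82 in the males at 48 h, but at -5.26 and -5.61 in the females at 48 h, where it was not well above background. Of the 4 arrays at 24 h, 3 were well above background. Its call rests on the female arrays at 48 h, so neither the size of its change nor that of its difference between the sexes was measured. The change in males was 0.10.

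The p53 protein switches on genes of arrest, repair and cell death after DNA damage. None of 38 tested p53 targets (43 listed) passed in limma, with 5 at an unadjusted p under 0.05, beside 3604 of all 19299 genes. The median change was -0.06, and it became 0.12 with median scaling. Cdkn1a, which encodes the cell cycle inhibitor p21, lay between 2.36 and 2.66 at 24 h and between 2.25 and 2.75 at 48 h (change -0.03, SE 0.13, adjusted p = 0.927). Mdm2, which targets p53 for destruction, changed by -0.12 (SE 0.065, adjusted p = 0.352), and the cell death gene Bax by -0.18 (SE 0.068, adjusted p = 0.193). Phlda3, an inhibitor of AKT, changed by 0.07 (SE 0.087, adjusted p = 0.693), and Trp53inp1, a stress protein, by -0.38 (SE 0.17, adjusted p = 0.274). Ccng1, the gene of cyclin G1, lay at 2.76 ± 0.15 at 24 h and 2.76 ± 0.13 at 48 h (SD, n = 4, adjusted p = 0.999). Eda2r was not among the tested genes. A p that misses the threshold does not show equal levels at both times.

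Of 34 acute phase genes, which hepatocytes secrete in inflammation, 2 fell and none rose, against 1.27% of all genes lower. These were the protease inhibitor gene Serpina3n at -1.06 (SE 0.21, adjusted p = 0.0362) and the complement gene C4b at -0.28 (SE 0.056, adjusted p = 0.0349), which passed in 3 and 2 of the 8 fits that left out 1 array. The second male at 48 h stood apart in this list. Lcn2, an iron-scavenging protein, lay at 7.46, 7.82, 9.09 and 8.53 at 24 h, and at 4.56, 3.85 and 3.83 on 3 arrays at 48 h, but at 8.97 in that male. Its change was -2.92 (SE 0.71, adjusted p = 0.0636) with all arrays, -4.03 without that male and -1.82 without male 1 at 48 h. Either of these fits leaves 1 male at 48 h, so the distance between the 2 males no longer counts in the spread. Without the same male 9 acute phase genes fell. None fell without female 1 or female 2 of either time, 1 fell without either male at 24 h, and 3 fell and 2 rose without male 1 at 48 h.

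Saa1, the major acute phase apolipoprotein, changed by -0.67 (SE 0.19, adjusted p = 0.0979) with all arrays and by -0.89 without the second male at 48 h. Its relative Saa2 changed by -0.56 (SE 0.25, adjusted p = 0.269). Hamp, which encodes the iron hormone hepcidin, changed by 0.06 (SE 0.24, adjusted p = 0.923). None of 11 tested granulocyte markers (26 listed), Lcn2 among them, passed in limma (2 at an unadjusted p under 0.05), and their summed level ran from 330 to 789 at 24 h and from 143 to 627 at 48 h. Lcn2 weighs heavily in this linear sum, with mean log2 levels of 8.23 at 24 h and 5.30 at 48 h, beside 1.53 and 1.64 for S100a9. The range of the sum is therefore no measure of granulocyte content. Of the 11 changes 6 were negative and 5 positive, with a median of -0.12.

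Beside interferon-stimulated and globin genes, the naming rule took 3 falls with separate arrays, those of Slc5a9, Derl3 and Gm10804. Slc5a9, a sugar transporter, changed by -4.81 (SE 0.93, adjusted p = 0.0309), but only 1 of 4 arrays at 48 h was well above background, so the size is poorly measured, and it passed in 1 of the 8 fits that left out 1 array. Derl3, which helps to clear misfolded proteins from the endoplasmic reticulum, lay between 3.70 and 4.39 at 24 h and at 3.61, 1.92, 1.99 and 0.48 at 48 h. Its change was -2.03 (SE 0.39, adjusted p = 0.031), and it passed in 4 of 8 such fits. It was the only one of 27 unfolded protein response genes to pass, against 1.27% of all genes lower. The predicted gene Gm10804 changed by -1.89 (SE 0.30, adjusted p = 0.0129), with the call lost without female 2 at 24 h (adjusted p = 0.053).

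Genes of mixed function rose with separate arrays. Slc51b, a subunit of the bile acid exporter on the blood side of hepatocytes, lay between -2.29 and -1.33 at 24 h and between -0.71 and -0.20 at 48 h. It changed by 1.18 (SE 0.15, adjusted p = 0.00432) and passed in all 8 fits that left out 1 array, as did the sodium exchanger Slc9a7 (0.86, SE 0.086, adjusted p = 0.00133), the membrane protease Tmprss2 (0.81, SE 0.10, adjusted p = 0.0051), the centromere protein Cenpt (0.75, SE 0.088, adjusted p = 0.00353) and 4430402I18Rik (0.76, SE 0.12, adjusted p = 0.0147). Of the 4 arrays at 24 h, 1 was well above background for 4430402I18Rik and 2 for Cenpt. Heyl, a Notch target, changed by 1.25 (SE 0.27, adjusted p = 0.0455), with 1 of 4 arrays at 24 h well above background.

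The long noncoding RNA Neat1 changed by 0.81 (SE 0.18, adjusted p = 0.0469), the acyl-CoA thioesterase Acot11 by 0.81 (SE 0.15, adjusted p = 0.0233), Gm5936 by 0.80 (SE 0.13, adjusted p = 0.0147) and Dmxl2 by 0.74 (SE 0.16, adjusted p = 0.0478). In males and females the changes were 1.17 and 0.43 for Gm5936 and 0.88 and 0.60 for Dmxl2. They were 0.78 and 0.85 for Neat1 and 0.75 and 0.86 for Acot11. None of these sex differences passed in limma. Gm5936 lost its call without female 2 at 24 h (adjusted p = 0.0552), and Heyl, Neat1, Acot11 and Dmxl2 passed in 3, 1, 4 and 2 of the 8 fits that left out 1 array.

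Of 18 tested clock genes none passed in limma, with 4 at an unadjusted p under 0.05. Per1, a repressor of the clock, ranged from -0.26 to 2.64 at 24 h and from -0.33 to 1.23 at 48 h (change -0.81, SE 0.51, adjusted p = 0.422). Dbp, a clock output factor, changed by -0.72 (SE 0.27, adjusted p = 0.198) and the activator Arntl by 0.32 (SE 0.13, adjusted p = 0.227). The time of day of sampling was not used here. Of 14 clock genes with a promoter 2 (14.3%) held the E-box CACGTG in the 250 bases before the start and 0 held the D-box TTATGTAA on either strand, beside 9.5% and 0.7% of the promoters of tested genes. Of 16 glucocorticoid targets 2 fell, against 1.27% of all genes lower. These were Pck1 and Tsc22d3, which encodes the glucocorticoid-induced leucine zipper protein (-0.55, SE 0.12, adjusted p = 0.0437). Tsc22d3 passed in 2 of the 8 fits that left out 1 array.

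The change differed between the sexes for 33 genes (0.171%), and 7 of these also passed in the mean of both sexes. Csad, which makes taurine precursors, lay at 5.19 and 5.37 in males and 2.40 and 2.68 in females at 24 h, and at 4.26, 3.72, 4.27 and 3.64 at 48 h. It fell by 1.28 in males and rose by 1.41 in females (difference -2.70, adjusted p = 0.024), so that the sexes were separate at 24 h and overlapped at 48 h. The uncharacterised 2010003K11Rik rose in males by 1.52 and changed by -0.74 in females (difference 2.26, adjusted p = 0.0353).

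Nucb2, the precursor of nesfatin, changed by -1.80 in females and -0.08 in males (difference 1.72, adjusted p = 0.0434). C8a, a complement gene with higher levels in males, changed by -0.86 in females and -0.08 in males (difference 0.78, adjusted p = 0.0366). Slc9a7 changed by 1.48 in males and 0.24 in females (difference 1.25, adjusted p = 0.0353). Bcl6, a repressor with sex-dependent levels in liver, was at 2.34 and 2.70 in males and 4.46 and 2.58 in females at 24 h, and at 5.56, 5.77, 3.90 and 3.89 at 48 h. Its change of 1.76 (SE 0.38, adjusted p = 0.047) was 3.14 in males and 0.37 in females, a difference that did not pass (adjusted p = 0.143), and it passed in 1 of the 8 fits that left out 1 array. With the 8 adult arrays alone, limma called no gene for the sex difference at an adjusted p under 0.05, with 2074 genes at an unadjusted p under 0.05. The count of 33 was 2 without female 1 at 24 h, 8 without female 1 at 48 h and 16 without female 2 at 24 h. It was 324 without male 1 at 48 h, 291 without male 1 at 24 h, and 52, 56 and 55 without male 2 at 24 h, male 2 at 48 h or female 2 at 48 h.

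The change differed between adults and infants for 346 genes (1.79%), of which 125 were among the 423 adult calls. Hamp2, a relative of hepcidin, rose in infants from a mean of 2.30 to 6.79 and changed by 0.19 in adults (difference -4.30, adjusted p = 0.0176). Hamp rose in infants by 2.33 (difference -2.27, adjusted p = 0.0143). Chac1, a glutathione-degrading enzyme of the stress response, rose in infants by 2.40 and changed by 0.18 in adults (difference -2.22, adjusted p = 0.0385). Its infant arrays at 24 h lay at low levels, between -4.25 and -2.10, and the filter on background used adult arrays alone. The size of its rise in infants, and of its age difference, is therefore uncertain. Camp, an antimicrobial peptide of granulocytes, fell in infants from a mean of 5.25 to 2.79 and changed by -0.12 in adults (difference 2.33, adjusted p = 0.000497). Cyclin D1 went the other way: Ccnd1 changed by 0.17 in infants and 1.19 in adults (difference 1.02, adjusted p = 0.00489). Because infant females of the 2 times lay on different slides, the age difference in part cannot be told apart from the slide, and with slide as a fixed block and sex left out 60 genes passed. The count was 173 without female 2 at 24 h, 188 without female 1 at 24 h, 220 without female 1 at 48 h and 645 without male 1 at 48 h.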

How the data were processed

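Liver RNA of single mice was measured on 1-colour Agilent arrays. The deposited intensity values are processed spot signals that the authors' scanner software, Agilent Feature Extraction (10.5.1.1 per the file headers, 11.5.1 per the submitters' processing notes), had background-subtracted within each array. The deposited log2 table of the authors holds values of the same arrays and served as an alternative, since its centring is not stated. Of 55681 probes, 28026 were named through accessions of the RefSeq gene table (94.1% of 29796 with such an accession), and the others kept the names in the files.

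From these, log2 intensity minus the 75th percentile of each array was computed, a gene was kept if well above background on at least 4 of 8 adult arrays, and its brightest probe stood for it. The test was limma 3.58.1 (R 4.3.3) on 16 arrays with a mean for each age, time and sex, with Benjamini-Hochberg adjustment over 19299 genes and a threshold of 0.05. The 8 infant arrays enter through the spread and the age difference, and the 0 h arrays were not used. Adjusted p-values are those of limma throughout, and the fit was tested on simulated data.

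Genes were named by rule: a set list, the 12 largest rises and falls with separate arrays, up to 4 passing members per list, and the 6 largest sex and age differences each way. Outside it, Oas3, Oasl2, Usp18, Bst2, Dhx58, Ddx58, Ifih1, Stat2, Irf9, Ifi27l2b, Ifi208, Ifi209, Trim30a, Phf11b, Gbp6, Acly, Acaca, Mlxipl, Rfc4, Lcn2, Ugdh and, from the fit with adults alone, Xaf1, Tor3a, Ifi44l and Nat8f5 were named after their values were seen. A few genes that the rule names are not reported here. The members and lists were chosen with earlier results of these data known. Alternatives changed the background correction, scaling, filter, slide, sample set, covariates, probes, spot marks and replicates. The normexp alternative used the median spot signal, because the mean signal it was planned on is not used here. Mice are separate animals, and the number of arrays limits the precision.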

Additional observations from a re-analysis of the deposited data

Results flagged for a closer look

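In 8 of 184 groups of 4 arrays, taken over 92 described genes, the highest or lowest array stood apart from the other 3 by a gap above Dixon's 95% critical value. Chance alone gives about 1 in 20 such groups. At 48 h, male 2 was high for Lcn2 (8.97, with the others between 3.83 and 4.56) and Saa2 (9.82, with the others between 8.82 and 8.87). Male 1 at 48 h was high for Rsad2 at 1.11, female 2 at 48 h was high for Gm10804 at -1.55, and female 1 at 48 h was low for Cd68 at 2.37. Female 1 at 24 h was high for Bcl6 at 4.46 and for Phf11b at 1.59, and male 2 at 24 h was high for Pck1 at 8.81.

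Of the genes described, 7 changed differently in adult males and females by the limma test. The change in males minus that in females was 1.11 for Ccnd1, 1.25 for Slc9a7, 2.82 for Ccnb1, 0.78 for C8a, -2.70 for Csad, 2.26 for 2010003K11Rik and 1.72 for Nucb2. For Ccnb1 both female arrays at 48 h were not well above background, so the size of its difference was not measured. Sex and slide cannot be told apart here.

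The adult change minus the infant change passed with a negative difference for interferon-stimulated and related genes, as log2 differences: Ifit1 -1.96, Ifit2 -1.60, Ifi44 -1.60, Gbp6 -1.55, Isg15 -1.44, Oasl2 -1.26, Phf11b -0.94, Dhx58 -0.93, Trim30a -0.78 and Ifih1 -0.70. The same sign was seen in genes of other function: Slc5a9 -6.10, Hamp2 -4.30, Derl3 -2.57, Hamp -2.27, Chac1 -2.22, Ccnb1 -1.83, Hba-a2 -1.67, G6pc -1.51, Tsc22d3 -1.02, Cd72 -0.81, Slc40a1 -0.67, Cyp3a13 -0.58 and C8a -0.53. Positive differences were those of Camp 2.33, Fasn 1.36, 2010003K11Rik 1.11, Acot11 1.09, Ccnd1 1.02, Gm5936 0.92, Tmprss2 0.86, Slc9a7 0.83, Elovl6 0.78, Cenpt 0.58 and Acaca 0.54. The sizes for Ccnb1 and Slc5a9 rest on adult arrays at 48 h that were not well above background. The filter on background did not cover the infant arrays. At 24 h these lay between -4.28 and -2.61 for Slc5a9, between -2.99 and -2.19 for Derl3 and between -4.25 and -2.10 for Chac1. The sizes of these differences are therefore uncertain on the infant side too. The slide of the infant females differed between times and cannot be told apart from part of these differences.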

How the results depend on the processing

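The number of genes passing was 423, with 177 higher and 246 lower. It was 826 (357 and 469) with normexp background correction, 223 with median scaling (95 lower), 224 (79 and 145) with slide as a fixed block, and 227 (79 and 148) with slide as a random block (correlation 0.381). It was 119 (57 and 62) within slide 2, 703 (478 lower) within slide 3, 16 (2 and 14) with the 8 adult arrays alone, and 109 (19 and 90) with sex left out. Without a filter on dim probes 69 were higher. Leaving out 1 array gave 152 to 756 passing, 48 to 286 higher and 104 to 470 lower. With the replicate block 411 passed, 104 of them higher, 238 genes passed the sex difference and 108 the age difference. Same-numbered samples correlated in their deviations at 0.27 in males and -0.06 in females, so the numbers were not taken as pairs. The sex difference, 33 genes, was 281 with normexp, 208 with median scaling, 179 without a filter, 20 with the filter on all 8 arrays, 0 with the adults alone (2074 at an unadjusted p under 0.05), 50 with all 24 arrays, and 2 to 324 with 1 array left out. The age difference, 346 genes, was 90 with median scaling, 176 without a filter, 60 and 109 with slide as a fixed and a random block, 28 with sex left out, and 173 to 645 with 1 array left out. The causes were not tested.

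Of 92 described genes, 37 kept their direction and side of the threshold with the 8 adult arrays alone and 67 with median scaling. Signs turned with median scaling for Bax (0.0068), Camp (0.063), Ccng1 (0.19), Cdkn1a (0.16) and Mdm2 (0.067). They turned in females alone for 2010003K11Rik (-0.74), Camp (0.30), Ccng1 (0.042), Cdkn1a (0.066), Chac1 (-0.14), Cyp4a14 (0.33), Cyp7a1 (-0.0201), Ifi27l2b (-0.81) and Mdm2 (0.14). They turned in males alone for Arntl (-0.15), Ccnb1 (0.10), Csad (-1.28), Dbp (0.12), Hamp (-0.10), Hamp2 (-0.0062) and Per1 (0.044). The mean of probes turned Camp (0.0108), Ifi208 (-0.21) and Mlxipl (-0.051), normexp turned Ccng1 (0.088), and the deposited log2 table gave it 0.0001. With 1 array left out, the range spanned zero for Ccng1 (-0.0855 to 0.085), Cdkn1a (-0.15 to 0.10), Chac1 (-0.12 to 0.49), Csad (-0.0925 to 0.22), Cyp4a14 (-0.97 to 0.49), Hamp2 (-0.44 to 0.82), Ifi27l2b (-0.21 to 0.57) and Phlda3 (-0.029 to 0.18).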

Other observations

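Several gene families related to the interferon response were chosen after their values in adult liver were seen. Their counts and the adjusted p-values of their genes, which come from the limma fit over all genes, are therefore a description and no support for a pattern. Of all genes tested, 1.27% were lower at 48 h and 0.917% higher. Of 7 tested members of the Ifi200 family, which encodes DNA-binding immune proteins, 6 passed with a lower level, and the median change was -0.99. Ifi209 changed by -1.49 (adjusted p = 0.0197), and it passed in 4 of the 8 fits that left out 1 array. Ifi208 had a value of 0.34 that did not pass (adjusted p = 0.0965), and the mean of its probes was -0.21. All 6 tested genes of the Trim12, Trim30 and Trim34 group passed with a lower level (median -0.82), with Trim30a at -1.14 (adjusted p = 0.00133). Of 4 tested Phf11 genes 3 passed with a lower level, with Phf11b at -1.20 (adjusted p = 0.00103).

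Of 10 tested guanylate-binding protein genes 3 passed with a lower level (median -0.51), with Gbp6 at -1.37 (adjusted p = 0.0129). Of 4 Schlafen genes 2 and of 7 Ms4a genes 2 passed with a lower level. The changes of 11 major urinary protein genes, which hepatocytes secrete, ran from -0.28 to 0.05. Of 21 antigen presentation genes none passed (1 at an unadjusted p under 0.05). Of 16 NRF2 targets, which act against oxidative stress, 2 passed with a higher level, Ugdh (0.23, adjusted p = 0.0469) and Me1, which also stands in the fatty acid synthesis list and passed in 2 of the 8 fits that left out 1 array. Of 28 DNA repair genes none passed in limma (9 at an unadjusted p under 0.05, beside 3604 of all 19299 genes).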
